A study of Homo sapiens with 8 samples.

Results

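The 31 genes described here encode the enzymes that build cholesterol and fatty acids and the proteins that control these enzymes. They were chosen by gene symbol, and all 31 were found among the 30017 gene symbols of the tables. By role, 7 act between acetyl-CoA and farnesyl diphosphate, 11 between squalene and cholesterol, 6 regulate the pathway, and 7 make, elongate or desaturate fatty acids. RNA sequencing covered 8 libraries of A549-S3KO cells, a derivative of the human lung adenocarcinoma line A549 in which SMAD3 is knocked out. All groups carried this knockout and received SMAD3 cDNA by lentivirus, either as wild-type Smad3 or as Smad3(RA/KP), which holds the changes R104K and A105P in the DNA-binding MH1 domain. The word line is used below for the cells that carry a given form. Both lines were seeded on collagen and harvested either unstimulated or following TGF-β at 1 ng/ml for 8 h, added at seeding. This gave 4 groups of n = 2 libraries. The published methods do not state how long unstimulated cells were kept after seeding. An effect of that time therefore cannot be told apart from TGF-β. Infected cells had been cloned by limiting dilution, several clones served for experiments, and the wild-type clone was picked for its low Smad3 level. The sequenced clones are not named in the sources used here, so a difference between clones and a difference between Smad3 forms cannot be told apart.

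Cells build cholesterol from acetyl-CoA through mevalonate, farnesyl diphosphate, squalene and lanosterol, and build fatty acids from the same acetyl-CoA. The transcription factors SREBP1 and SREBP2, encoded by SREBF1 and SREBF2, turn on most of these genes, SREBP2 mainly those for cholesterol and SREBP1 mainly those for fatty acids. They are held in the endoplasmic reticulum with SCAP by the INSIG proteins while sterols are plentiful, and SCAP carries them to the Golgi apparatus for cleavage when sterols run low.

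The libraries held 1.15 to 1.81 Gb of mapped bases and 12773 to 13281 symbols at 1 TPM (a read density per transcript length, scaled to the same total in each library) or more. SMAD3 stood at 137 to 187 TPM in all 8, a sum over knocked-out and introduced copies. Of 7 epithelial markers, KRT8 stood at 4235 to 6862 TPM, EPCAM at 1.40 to 3.95 TPM and KRT19 was listed at 0 in every library. Of 5 markers of type II pneumocytes, the surfactant genes SFTPB, SFTPC and SFTPA1 were at 0. NKX2-1 reached at most 0.09 TPM, but ABCA3 stood at 12.2 to 19.5 TPM. The leukocyte markers PTPRC and CD3E were at 0, while CD68 stood at 51.0 to 104 TPM. Summed over each list, endothelial markers reached at most 0.21 TPM and fibroblast markers 5.51 TPM. In untreated Smad3(RA/KP) cells, the difference of replicate 2 from replicate 1 ran against transcript GC content. The Spearman correlation was -0.585 across 12386 genes, against 0.101 to 0.224 in the other groups. This difference alone cannot tell which of the 2 libraries moved. Replicate 2 of this group is referred to below as the library that stood apart. Values without replicate 2 are given beside several changes that it moved.

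With TGF-β, ACLY rose and ELOVL6 fell in each line, while most enzymes of cholesterol synthesis had slightly lower levels that did not pass the test. Values were compared on log2(TPM + 1) with limma over the 13141 genes whose mean reached 1 TPM, and a gene is said to have changed at a Benjamini-Hochberg adjusted p under 0.05. All 31 members passed this filter on low values. In the response averaged over both lines, 4 of 31 members (12.9%) changed, against 11.3% of all genes tested. Of these 1 rose (6.22% of all genes) and 3 fell (5.08% of all genes). On FPKM, the other deposited measure, 8 of 31 (25.8%) changed against 14.2% of genes, so how the members' share stood to that of all genes depended on the measure. The median log2 change of the members was -0.17, beside -0.09 over all genes, and 27 of 31 members lay below 0, beside 62.0% of all genes. With FPKM, median-ratio scaling or quantile normalization, 25 to 28 of the 31 lay below 0. In bulk RNA, a lower level in each cell and fewer expressing cells cannot be told apart.

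**Figure D1:**
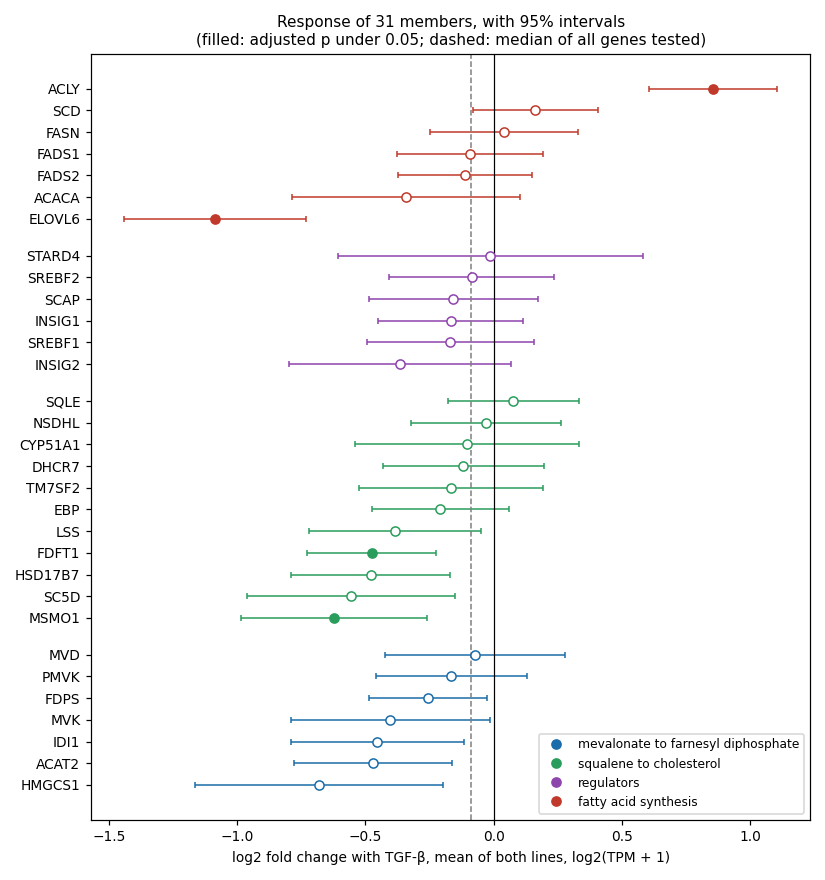
The log2 fold change with TGF-β, averaged over both lines on the log2(TPM + 1) scale, is drawn for each of the 31 members by role with its 95% interval. Filled points passed the test, namely ACLY at 0.86 to the right of 0 and MSMO1, FDFT1 and ELOVL6 to the left, while 17 of the 18 enzymes of cholesterol synthesis lie below 0.

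ACLY, ATP citrate lyase, makes the cytosolic acetyl-CoA from which both pathways start, and it was the most abundant member in every TGF-β-treated library. With wild-type Smad3 it had 283 and 310 TPM untreated and 562 and 597 TPM after TGF-β. With Smad3(RA/KP) the values were 265 and 314 TPM untreated and 511 and 462 TPM after TGF-β. All 4 treated libraries thus stood above all 4 untreated ones. The log2 change averaged over the lines was 0.86 ± 0.11 (SE, adjusted p = 0.00139, limma), or 1.81-fold.

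ELOVL6, an elongase that extends saturated and monounsaturated fatty acids, moved the other way. It had 10.9 and 13 TPM in untreated wild-type cells and 4.09 and 6.19 TPM with TGF-β. The Smad3(RA/KP) line had 9.81 and 16.5 TPM untreated and 4.85 and 6.20 TPM with TGF-β. The highest treated library was below the lowest untreated one, and in all 4 groups replicate 2 was the higher. The averaged log2 change was -1.09 ± 0.16 (SE, adjusted p = 0.00239, limma). ACLY and ELOVL6 passed the test of the averaged response in each of 19 alternative analyses, those leaving out 1 library included.

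FDFT1, squalene synthase, takes the first step that leads only to sterols. It had 94.2 and 91.6 TPM in untreated wild-type cells, and 72.9 and 79.7 TPM with TGF-β. Levels in Smad3(RA/KP) cells were 107 and 111 TPM untreated, and 72.9 and 63.9 TPM with TGF-β. Treated and untreated libraries did not overlap, and the averaged log2 change was -0.48 ± 0.11 (SE, adjusted p = 0.0259, limma). This call was kept in 13 of 19 alternatives, over which its adjusted p ranged from 0.0110 to 0.162. It was lost without any 1 of the 4 wild-type libraries (-0.52 to -0.43) and without replicate 2 of treated Smad3(RA/KP) cells (-0.42).

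MSMO1 is a methylsterol monooxygenase that acts in the removal of methyl groups from lanosterol-derived sterols. It had 16.7 and 15.6 TPM in untreated wild-type cells and 14 and 12.3 TPM with TGF-β. Values in the other line were 18.1 and 24.2 TPM untreated and 11.7 and 9.01 TPM with TGF-β. The groups by treatment did not overlap, and the gap was wider in Smad3(RA/KP) cells, where the highest untreated value came from the library that stood apart. The averaged log2 change was -0.62 ± 0.16 (SE, adjusted p = 0.0379, limma). This call was kept in 9 of 19 alternatives (adjusted p from 0.00837 to 0.195). It was lost without the library that stood apart, when the change was -0.47, and without any 1 of the others (-0.72 to -0.52) except replicate 1 of untreated Smad3(RA/KP) cells.

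Without regard to the model, the 4 treated libraries lay wholly below the 4 untreated ones for 7 of 31 members (22.6%), against 8.69% of all genes tested. They lay wholly above for ACLY alone (3.23%), against 6.96% of genes. The 7 lower members were ELOVL6 and 6 enzymes of cholesterol synthesis, spread from the first step to a late one: ACAT2, HMGCS1, FDFT1, MSMO1, HSD17B7 and SC5D. No regulator was among them. Taking each treated library against the untreated library of the same line and replicate number, 12 of 31 members (38.7%) were lower in all 4 ratios, beside 20.1% of genes tested.

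**Figure D2:**
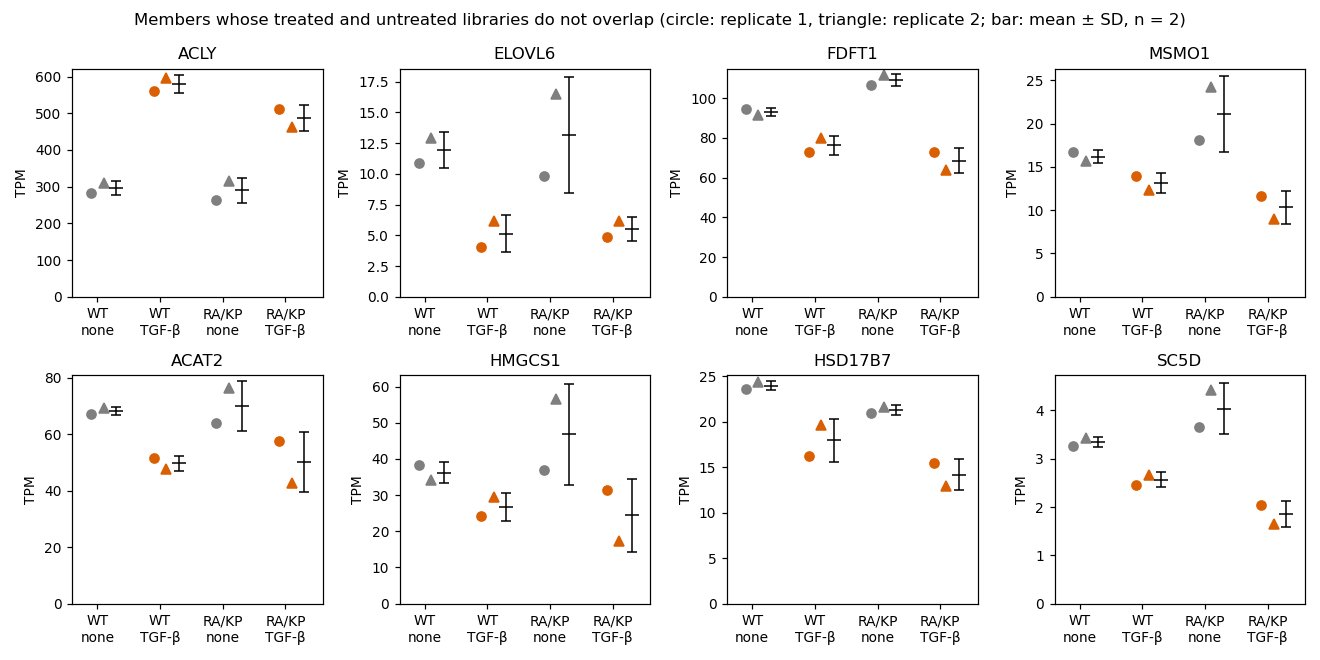
TPM in each library is drawn for the 8 members whose treated and untreated libraries did not overlap, with untreated libraries in grey and TGF-β-treated ones in orange, and bars for mean ± SD (n = 2). ACLY is the only one with treated libraries on top, from 462 to 597 TPM against 265 to 314 TPM.

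To show the DNA in front of these genes, the 250 bases before the annotated start were read from RefSeq (GRCh38.p14) for the members that a table of promoters held, which were 27 of 31, with 37 start sites. SREBPs bind poorly alone and act beside NF-Y and Sp1, so the 6 motifs searched on both strands included CCAAT (bound by NF-Y), GGGCGG (bound by Sp1) and CACNCCAC (the core of a sterol regulatory element). CCAAT was found in 23 of 37 windows (62.2%), against 32% of all 35116 windows in the table, and at least 2 copies in 15 (40.5%), against 9.53%. GGGCGG was in 33 windows (89.2%) against 42.6%, and CACNCCAC in 6 (16.2%) against 4.87%. The longer form TCACNCCAC, which contains the core, was found in 1 window, that of SREBF2, and in 0.883% of all windows. The Smad palindrome GTCTAGAC was in none of the 37 and in 0.182% of all. The E-box CACGTG was in 4 windows (10.8%) against 6.34%. These are matches of letters and not measured binding. The background was every window of the table, not matched to the members for expression level, GC content or gene type. Some of the 27 members count with several of the 37 windows. The shares therefore cannot show what is particular to these genes. Below are windows of HMGCS1 and MSMO1, sterol enzymes at lower levels with TGF-β, of ACLY and ELOVL6, which changed in opposite directions, and of SREBF2, the member with the longer element. Capitals mark CCAAT, its reverse complement ATTGG, and CACNCCAC, and each line runs 5′ to 3′ on the strand of the gene.
HMGCS1, chr5:43313413-43313662, minus strand: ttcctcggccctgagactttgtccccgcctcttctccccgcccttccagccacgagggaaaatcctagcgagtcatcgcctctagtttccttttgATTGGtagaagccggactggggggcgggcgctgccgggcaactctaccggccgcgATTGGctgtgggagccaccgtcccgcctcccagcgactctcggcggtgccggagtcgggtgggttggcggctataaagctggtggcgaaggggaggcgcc
MSMO1, chr4:165327419-165327668, plus strand: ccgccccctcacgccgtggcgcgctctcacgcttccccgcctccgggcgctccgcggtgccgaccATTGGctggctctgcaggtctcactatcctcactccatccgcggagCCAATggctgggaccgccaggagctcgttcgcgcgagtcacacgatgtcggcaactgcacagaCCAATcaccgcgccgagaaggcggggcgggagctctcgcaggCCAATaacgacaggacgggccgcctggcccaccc
ACLY, chr17:41919023-41919272, minus strand: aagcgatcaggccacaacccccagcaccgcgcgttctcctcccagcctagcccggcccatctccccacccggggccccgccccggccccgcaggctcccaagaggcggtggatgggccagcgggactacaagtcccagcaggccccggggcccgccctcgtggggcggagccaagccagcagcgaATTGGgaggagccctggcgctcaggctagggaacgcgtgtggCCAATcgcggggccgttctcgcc
ELOVL6, chr4:110198616-110198865, minus strand: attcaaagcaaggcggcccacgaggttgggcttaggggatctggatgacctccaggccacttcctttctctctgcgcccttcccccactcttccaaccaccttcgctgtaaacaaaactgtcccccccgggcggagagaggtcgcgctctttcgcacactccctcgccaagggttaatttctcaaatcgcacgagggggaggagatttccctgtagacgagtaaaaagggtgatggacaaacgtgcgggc
SREBF2, chr22:41832855-41833104, plus strand: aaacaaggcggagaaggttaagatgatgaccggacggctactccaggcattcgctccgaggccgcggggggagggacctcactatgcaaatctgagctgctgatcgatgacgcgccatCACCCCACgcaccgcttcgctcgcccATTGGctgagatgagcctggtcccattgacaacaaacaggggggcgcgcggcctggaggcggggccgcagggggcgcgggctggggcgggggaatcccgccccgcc

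The MSMO1 window holds 4 CCAAT boxes and that of HMGCS1 holds 2, while the ELOVL6 window holds none. The ACLY window holds 2. Only 1 member rose, so these windows cannot show whether the motif goes with the direction of change. The RefSeq start used for ACLY lies 11520 bases inside the deposited gene record. Of the 27 members with a window, 18 had CCAAT in the window nearest the deposited start and 3 had CACNCCAC there.

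The enzymes from acetyl-CoA to farnesyl diphosphate were all at lower mean levels with TGF-β, but 0 of 7 passed limma's test of the averaged response, with 5 of 7 at an unadjusted p under 0.05, beside 26.2% of all genes. On FPKM 3 of the 7 fell, namely ACAT2, HMGCS1 and IDI1 (adjusted p = 0.0272, 0.0401 and 0.0445, limma), when 14.2% of all genes changed. After removal of the trend with transcript GC content from every library MVK and FDPS fell (adjusted p = 0.0345 and 0.0372, limma), when 14.6% of all genes changed. In the main fit the median log2 change of the 7 was -0.40, beside -0.09 over all genes. Their summed level was 517 and 467 TPM in untreated wild-type cells and 428 and 402 TPM with TGF-β. For Smad3(RA/KP) the sum was 530 and 476 TPM untreated and 406 and 366 TPM with TGF-β, so that all treated sums were below all untreated ones.

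ACAT2, the cytosolic thiolase that joins acetyl-CoA units, had 67.3 and 69.4 TPM in untreated wild-type cells and 51.6 and 47.8 TPM with TGF-β. The other line had 63.8 and 76.3 TPM untreated and 57.5 and 42.6 TPM with TGF-β. The treatments did not overlap, but the log2 change of -0.47 ± 0.14 missed the threshold (adjusted p = 0.0588, limma). Its record shares 558 bases with TCP1 on the opposite strand, which had a mean of 139 TPM, and the counting is not stated to use strand.

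HMGCS1, which makes HMG-CoA, the precursor of mevalonate, had 38.3 and 34.1 TPM in untreated wild-type cells and 24.1 and 29.6 TPM with TGF-β. The Smad3(RA/KP) line had 37.0 and 56.7 TPM untreated and 31.5 and 17.3 TPM with TGF-β. The treatments did not overlap here either, yet replicate 2 of Smad3(RA/KP) cells carried most of the gap in that line, with a log2 ratio of -1.66 against -0.23 in replicate 1. The averaged change was -0.68 ± 0.21 (SE, adjusted p = 0.0767, limma).

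MVK, mevalonate kinase, had 38.0 and 38.8 TPM in untreated wild-type cells against 25.8 and 31.2 TPM with TGF-β, and 47.0 and 27.4 TPM against 28.9 and 25.8 TPM in Smad3(RA/KP) cells. IDI1, which isomerises isopentenyl diphosphate, had 46.6 and 43.2 TPM against 44.9 and 35.9 TPM in wild-type cells, and 51.1 and 59.5 TPM against 39.9 and 26.2 TPM in Smad3(RA/KP) cells. FDPS, the synthase of farnesyl diphosphate and the most abundant of the 7, had 165 and 154 TPM against 143 and 141 TPM, and 154 and 142 TPM against 118 and 114 TPM. All 3 were lower in each of the 4 ratios, with averaged log2 changes of -0.40 ± 0.17, -0.45 ± 0.15 and -0.26 ± 0.10 that did not pass the test (adjusted p = 0.176, 0.0883 and 0.150, limma). MVD, a decarboxylase, had 47.7 and 47.4 TPM against 39.7 and 48.6 TPM, and 60.9 and 46.0 TPM against 43.6 and 61.1 TPM, with treatments overlapping. PMVK, the next kinase after MVK, ranged from 67.1 to 116 TPM over the 8 libraries and was higher in replicate 1 of every group.

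Of the 11 enzymes from squalene to cholesterol, 2 fell (18.2%, FDFT1 and MSMO1) and 9 did not pass the test. The median log2 change of the 11 was -0.21. Taken with the 7 enzymes above, the 18 sterol enzymes had a median of -0.32, 17 of 18 were below 0 (16 with median-ratio scaling), and 2 (11.1%) passed, beside 11.3% of all genes. At an unadjusted p under 0.05 there were 10 of 18, beside 26.2% of all genes. Their summed level was 1055 ± 31.7 TPM (SD, n = 2) in untreated and 930 ± 31.6 TPM in treated wild-type cells, and 1134 ± 66.7 against 894 ± 76.5 TPM in Smad3(RA/KP) cells.

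**Figure D3:**
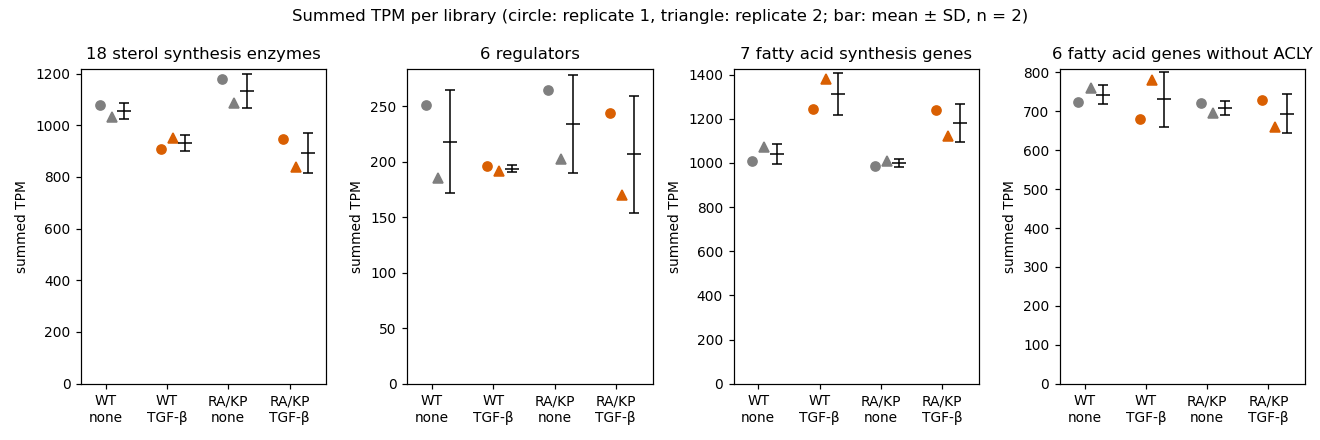
TPM summed over the 18 sterol enzymes, the 6 regulators, the 7 fatty acid genes and the latter without ACLY is drawn for each library, with bars for mean ± SD (n = 2). Sterol sums run from 839 to 953 TPM with TGF-β against 1032 to 1181 TPM without, while the fatty acid genes other than ACLY overlap between treatments.

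HSD17B7, a ketosteroid reductase of the demethylation steps, had 23.6 and 24.3 TPM in untreated wild-type cells and 16.3 and 19.6 TPM with TGF-β. The other line had 20.9 and 21.6 TPM untreated and 15.4 and 13 TPM with TGF-β. Its log2 change was -0.48 ± 0.14 (SE, adjusted p = 0.0567, limma), as large as that of FDFT1, with no overlap between treatments, and it passed on FPKM (adjusted p = 0.0272). SC5D, a late desaturase, stood at far lower levels, with 3.27 and 3.42 TPM against 2.45 and 2.67 TPM in wild-type cells and 3.66 and 4.42 TPM against 2.04 and 1.66 TPM in Smad3(RA/KP) cells. It too did not overlap, and its change of -0.55 ± 0.18 did not pass the test (adjusted p = 0.0842, limma).

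LSS, which closes the sterol rings, had 24.4 and 33.8 TPM against 15.3 and 29.1 TPM in wild-type cells and 27.6 and 39.0 TPM against 24.5 and 26.9 TPM in Smad3(RA/KP) cells. Its 4 ratios were all below 0, but replicate 2 was the higher in every group, by a mean log2 of 0.49, and treatments overlapped. EBP, a sterol isomerase and the most abundant of the 11, had 161 and 147 TPM against 139 and 144 TPM, and 214 and 159 TPM against 168 and 134 TPM. TM7SF2, a sterol reductase, had 14 and 13 TPM against 10.6 and 8.46 TPM in wild-type cells, where treatments did not overlap. In Smad3(RA/KP) cells it had 15.3 and 10.1 TPM against 13.2 and 14.5 TPM, and treatments overlapped. How many of all genes show such a pattern within a line was not counted. None of LSS, EBP and TM7SF2 passed the test of the averaged response (adjusted p = 0.139, 0.304 and 0.548, limma).

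The others ranged over the 8 libraries from 37.9 to 51.4 TPM (SQLE, squalene epoxidase), 20.7 to 47.8 TPM (CYP51A1, lanosterol demethylase), 55.0 to 82.8 TPM (NSDHL, a sterol dehydrogenase) and 67.2 to 97.6 TPM (DHCR7, a terminal reductase). SQLE, at 0.08 ± 0.11, was the single sterol enzyme with an averaged change above 0, and NSDHL stood at -0.03 ± 0.13, both within their error of 0. The highest CYP51A1 value, 47.8 TPM, was in replicate 2 of untreated Smad3(RA/KP) cells, beside 20.7 TPM in replicate 1.

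No regulator passed the test, with 0 of 6 called by limma and 0 at an unadjusted p under 0.05. Their median log2 change was -0.16. SREBF1 and SREBF2, the genes of the 2 SREBPs, had averaged log2 changes of -0.17 ± 0.14 and -0.09 ± 0.14. SREBF1 followed the replicate number more than the treatment, with 138 and 77.1 TPM untreated and 95.1 and 80.2 TPM after TGF-β in wild-type cells, and 148 and 70.3 TPM untreated and 122 and 74.7 TPM with TGF-β in Smad3(RA/KP) cells. Replicate 2 was lower in all 4 groups, by a mean log2 of 0.71 in size. SREBF2 ranged from 32.2 to 45.3 TPM.

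INSIG1 and INSIG2 hold the SREBP-SCAP complex in the endoplasmic reticulum, and INSIG1 is itself an SREBP target. INSIG1 had 32.2 and 33.2 TPM against 34.1 and 32.4 TPM after TGF-β in wild-type cells, and 36.8 and 42.3 TPM against 33.2 and 28.2 TPM in Smad3(RA/KP) cells. INSIG2 had 3.38 and 2.34 TPM against 3.16 and 2.66 TPM, and 4.24 and 5.54 TPM against 2.35 and 2.56 TPM. For both, treatments overlapped in wild-type cells and did not in Smad3(RA/KP) cells, where the highest untreated value came from the library that stood apart. How many of all genes show this pattern within a line was not counted. The test of the difference between lines for INSIG1 and INSIG2 is given with the lines. SCAP had 26.3 and 25.3 TPM against 21.1 and 22.9 TPM, and 27.5 and 29.6 TPM against 31.9 and 22.3 TPM. STARD4, a carrier of cholesterol between membranes, had 7.86 and 7.38 TPM against 10.5 and 9.66 TPM in wild-type cells, but 6.34 and 13.2 TPM against 9.63 and 4.74 TPM in Smad3(RA/KP) cells, where the replicates went in opposite directions.

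The 7 fatty acid genes had no common direction in the averaged response, with 1 up (ACLY), 1 down (ELOVL6) and 5 that did not pass. The share called was 28.6%, beside 11.3% of all genes. Of all genes, 6.22% rose and 5.08% fell. The median log2 change of the 7 was -0.09, beside the same over all genes. Their summed level was 1040 ± 44.2 TPM (SD, n = 2) without and 1311 ± 95.4 TPM after TGF-β in wild-type cells, and 999 ± 17.7 against 1181 ± 85.5 TPM in Smad3(RA/KP) cells. Without ACLY the sums were 743 ± 25.5 against 732 ± 70.6 TPM and 709 ± 17.4 against 694 ± 50.6 TPM, so the gain in the sum lay in ACLY.

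ACACA, acetyl-CoA carboxylase, the committed step, had 14.8 and 15.5 TPM against 11.3 and 13.7 TPM after TGF-β in wild-type cells, and 12.4 and 19.9 TPM against 14.2 and 9.32 TPM in Smad3(RA/KP) cells. FASN, fatty acid synthase, had 128 and 132 TPM against 105 and 121 TPM, and 131 and 102 TPM against 154 and 130 TPM. SCD, the desaturase that makes oleate, had 186 and 186 TPM against 219 and 243 TPM, and 171 and 176 TPM against 186 and 166 TPM. None of the 3 passed the test of the averaged response (adjusted p = 0.310, 0.875 and 0.374, limma). FADS1 and FADS2, desaturases of polyunsaturated fatty acids whose records overlap by 855 bases on opposite strands, ranged from 97.8 to 149 TPM and from 234 to 299 TPM.

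Within wild-type Smad3 cells alone, 2 of 31 members (6.45%) changed with TGF-β, against 4.68% of all genes. ACLY rose by 0.96 ± 0.16 (adjusted p = 0.00910; 2.94% of all genes rose) and ELOVL6 fell by 1.09 ± 0.22 (adjusted p = 0.0257; 1.74% of all genes fell), both by limma on the log2 scale. Without the replicate number as a block, ACLY passed (adjusted p = 0.0284) and ELOVL6 did not (adjusted p = 0.129, limma). Both calls were lost when any 1 of the 4 wild-type libraries was left out, with log2 values then of 0.93 to 1.00 for ACLY and -1.23 to -0.96 for ELOVL6. The members' median was -0.21, beside -0.06 over all genes.

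Within Smad3(RA/KP) cells alone, 4 of 31 members (12.9%) changed, against 4.98% of all genes. ACLY rose by 0.75 ± 0.16 (adjusted p = 0.0297), ELOVL6 fell by 1.08 ± 0.22 (adjusted p = 0.0270), MSMO1 fell by 0.96 ± 0.23 (adjusted p = 0.0464) and FDFT1 fell by 0.67 ± 0.16 (adjusted p = 0.0467, all limma, log2 scale). Of all genes, 3.49% rose and 1.5% fell, which were 458 and 197 genes, or 458 and 309 with FPKM. Without the replicate number as a block, 0 members passed, when 2.05% of all genes did. The members' median was -0.34, beside -0.10 over all genes. Without replicate 2 of untreated cells, the library that stood apart, 1 member passed, ACLY, and the median was -0.29. Without replicate 1 of untreated cells 7 passed (22.6%), when 20.0% of all genes did, and without any 1 of the other 6 libraries none did, with an adjusted p of 0.0524 or more. With the GC trend removed, 3 members passed (9.68%, against 5.4% of all genes) and the median was -0.35.

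GC content moved with the members' ratio of replicate 2 to replicate 1 in untreated Smad3(RA/KP) cells. Of the 15 members below the members' median GC content of 49.3%, 15 were higher in replicate 2 than in replicate 1 of untreated Smad3(RA/KP) cells, by a median log2 of 0.25. Of the 16 at or above it, 5 were higher, and the median was -0.36. In untreated wild-type cells the counts were 8 of 15 and 6 of 16. Averaged over both lines, removing the GC trend left 6 members called (19.4%, against 14.6% of all genes), with MVK and FDPS added and a median of -0.29.

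**Figure D4:**
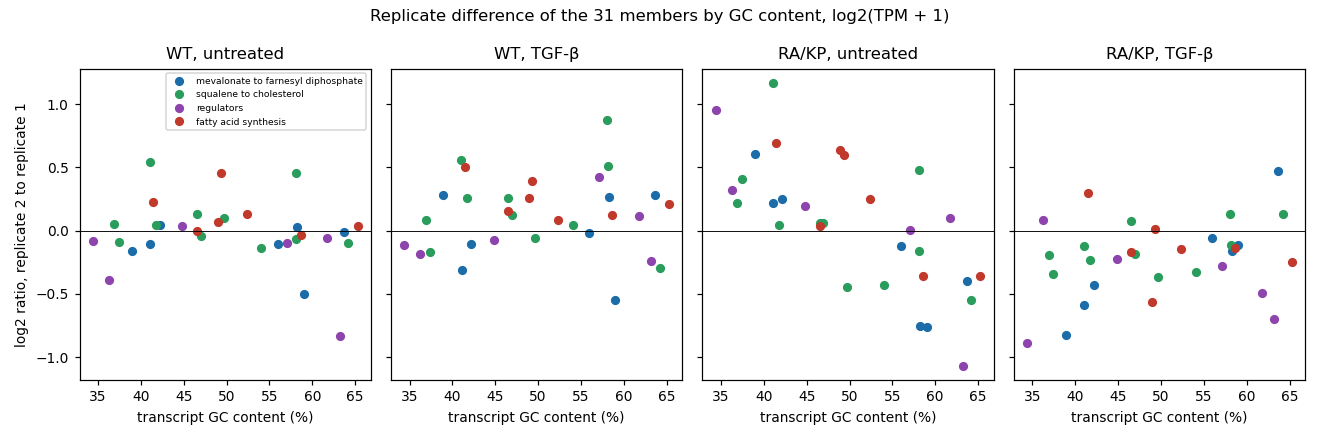
The log2 ratio of replicate 2 to replicate 1 on the log2(TPM + 1) scale is drawn against transcript GC content for the 31 members, 1 panel for each group and coloured by role. In untreated Smad3(RA/KP) cells the points slope down, with 15 of 15 members of lower GC content above 0 and 5 of 16 of the rest.

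The lines were then compared, to ask whether the mutation altered the response of these genes. The test of the difference between the responses called 0 of 31 members with limma, with 0 at an unadjusted p under 0.05, against 0.0228% of all genes. The intervals were wide. GC content moved with these comparisons as well: across genes its Spearman correlation was 0.620 with the difference of responses, -0.376 with the difference between untreated lines and 0.542 with that between treated lines, which does not use the library that stood apart. For MSMO1, with the smallest p, the response in Smad3(RA/KP) cells was lower by 0.68 ± 0.32 on the log2 scale, with a 95% interval of -1.40 to 0.05. This difference was -0.38 without the library that stood apart and -0.36 with the GC trend removed. For INSIG2 the difference was -0.79 ± 0.38 with an interval of -1.66 to 0.08, and for FDFT1 -0.39 ± 0.22 with an interval of -0.89 to 0.12. Without that library they were -0.55 and -0.34, and with the GC trend removed -0.44 and -0.31. For INSIG1 the difference was -0.38 ± 0.25, and -0.24 without that library. For ACLY the interval of the difference ran from -0.72 to 0.28 and for ELOVL6 from -0.70 to 0.72, so a moderate difference in either direction was not detectable with n = 2.

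**Figure D5:**
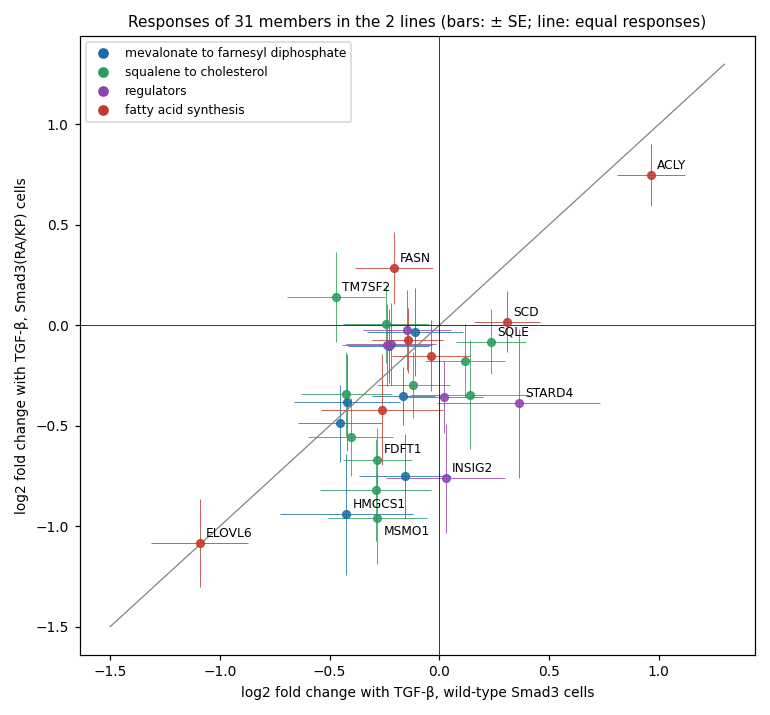
The log2 fold change with TGF-β in Smad3(RA/KP) cells is drawn against that in wild-type Smad3 cells for the 31 members, with bars for ± SE and a line of equal responses. ACLY and ELOVL6 lie in opposite corners near the line, and no member passed the test of the difference between lines.

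In 3 members (9.68%, against 8.37% of genes tested) both replicates moved one way in wild-type cells and the other way in Smad3(RA/KP) cells. SQLE had log2 ratios of 0.17 and 0.30 in wild-type and -0.09 and -0.07 in Smad3(RA/KP) cells, and NSDHL had 0.19 and 0.04 against -0.21 and -0.14. FASN had -0.29 and -0.12 against 0.23 and 0.34. The differences, -0.32 ± 0.23, -0.29 ± 0.26 and 0.49 ± 0.25, did not pass the test (adjusted p = 0.881, 0.883 and 0.881, limma). Without the library that stood apart they were -0.36, -0.46 and 0.31. With the GC trend removed, the response of FASN was -0.19 for wild-type Smad3 and -0.09 for Smad3(RA/KP), no longer opposite. That of SQLE was then 0.23 and 0.00, while NSDHL had 0.11 and -0.18.

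Between the untreated lines limma called 0 of 31 members, with 1 at an unadjusted p under 0.05 (INSIG2, higher in Smad3(RA/KP) cells by 0.62 ± 0.27, or 0.37 without the library that stood apart), and 0.0152% of all genes called. The treated lines also gave 0 of 31, with 1 at an unadjusted p under 0.05 (SCD, -0.39 ± 0.15), against 0.00761% of all genes. Averaged over treatment there were again 0 of 31, with SCD alone at an unadjusted p under 0.05 (-0.25 ± 0.11), against 0.00761% of genes. These comparisons share libraries with the responses above.

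Other genes of the pathway, from lists of related function, gave the surroundings of the members in the averaged response. These lists were chosen with earlier results of these data known. A share above that of all genes is therefore not independent support. Of 13 further sterol synthesis and SREBP2 target genes tested of 14 listed, 6 (46.2%) fell and none rose, beside 11.3% of all genes. One was TMEM97, a sterol-responsive membrane protein, with 54.9 and 42.9 TPM against 36.7 and 23.9 TPM for wild-type Smad3, and 48.8 and 43.3 TPM against 34.9 and 18.6 TPM in Smad3(RA/KP) cells. Its log2 change was -0.76 ± 0.14 (SE, adjusted p = 0.00992, limma). CYB5A and CYB5B, cytochromes b5 that pass electrons to sterol and fatty acid desaturases, also fell, with log2 changes of -0.69 ± 0.11 and -0.68 ± 0.13, as did ACSS2, a cytosolic acetyl-CoA synthetase, at -0.60 ± 0.15 (adjusted p = 0.00411, 0.00879 and 0.0369, limma). Over the 19 alternatives TMEM97 and CYB5B each passed in 15, and ACSS2 in 10 (adjusted p up to 0.203). CYB5A, CYB5B and ACSS2 were named after their values were seen.

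The machinery that transports, cleaves and degrades SREBP and its partners gave 0 of 16 by limma. An unadjusted p under 0.05 was reached by 3 of the 16, beside 26.2% of all genes. ERLIN2, a protein of the endoplasmic reticulum membrane, had the smallest p among them, with a log2 change of -0.53 ± 0.18 that did not pass. Of 10 LXR and cholesterol efflux genes, 1 changed (10%, beside 11.3% of all genes). It was ABCG1, an exporter of cholesterol, with 2.57 and 1.95 TPM against 6.57 and 6.18 TPM after TGF-β in wild-type cells and 2.09 and 0.95 TPM against 5.33 and 3.65 TPM in Smad3(RA/KP) cells (log2 change 1.16 ± 0.18, adjusted p = 0.00384, limma).

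Of 15 genes for cholesterol uptake, transport and storage, 3 changed (20%, beside 11.3% of all genes). PLIN2, a coat protein of lipid droplets, fell, with 34.1 and 46.0 TPM against 15.5 and 20.0 TPM in wild-type cells and 32.0 and 66.5 TPM against 15.7 and 17.8 TPM in Smad3(RA/KP) cells. Its log2 change was -1.27 ± 0.16 (SE, adjusted p = 0.00120, limma). GRAMD1A, a carrier of plasma membrane cholesterol, rose by 0.59 ± 0.13 and PLIN3, a second droplet coat protein, by 0.54 ± 0.12 (adjusted p = 0.0211 and 0.0215, limma). Each of these rises passed in 11 of 19 alternatives, with an adjusted p of up to 0.136. PLIN3 was named after its values were seen.

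In the isoprenoid branch, which draws on farnesyl diphosphate for prenyl groups, coenzyme Q and dolichol, limma called 0 of 12. At an unadjusted p under 0.05 there was 1 of 12, beside 26.2% of all genes. All 12 lay below 0, beside 62.0% of all genes, with a median log2 change of -0.25, beside -0.09 over all genes. The smallest p belonged to PDSS1 and RABGGTB at -0.43 ± 0.15 and -0.44 ± 0.20. Of 18 further fatty acid synthesis and activation genes tested of 20 listed, limma called 0. An unadjusted p under 0.05 was reached by 4 of the 18, beside 26.2% of all genes. OXSM and ELOVL7 came closest, at -0.58 ± 0.18 and -0.59 ± 0.20 (adjusted p = 0.0771 and 0.0894). Of 17 fatty acid oxidation genes tested of 18 listed, 1 changed (5.88%, beside 11.3% of all genes). This was PDK4, a kinase that restrains pyruvate dehydrogenase, with 3.80 and 1.10 TPM against 0.26 and 0 TPM in wild-type cells and 3.49 and 3.12 TPM against 0.38 and 0 TPM in Smad3(RA/KP) cells (adjusted p = 0.00211, limma).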

How the data were processed

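Poly(A) RNA was sequenced from 8 libraries of A549-S3KO cells (Ion Total RNA-Seq Kit v2). Per the submitters' processing notes, HISAT2 2.1.0 aligned the reads to GRCh38 and StringTie 2.0.4 quantified them, on an annotation whose release the sources used here do not give. The authors deposited 1 table per library with TPM, FPKM and mean base coverage of 33122 records. The authors scaled TPM to sum to 1000000 per library and FPKM by length and mapped fragments. Coverage, as deposited, was used with FPKM to recover mapped bases. The tables hold no read counts, so no counting interval is given.

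TPM of records with one symbol was summed, giving 30017 symbols. The 13141 symbols with a mean of at least 1 TPM were fitted on log2(TPM + 1) with limma 3.58.1 in R 4.3.3, using the 4 groups, the replicate number as a block, moderation with a trend on mean level, and p-values adjusted by Benjamini-Hochberg over all of them, called under 0.05 (3 residual and 5.90 prior degrees of freedom). Fold changes on this scale understate those of low genes. The replicates are described as 2 independent experiments, but it is not stated that equal numbers in different groups mark one experiment, so this pairing is assumed. Deviations of same-numbered libraries from their group means correlated at 0.0484 to 0.332.

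The members and gene lists were chosen with earlier results of these data known. Values in every library were given for members that passed in any comparison and for up to 4 members per role with the smallest p in the averaged response or the averaged line difference. From each other list up to 2 genes were named, those past the threshold with the largest change or else those with the smallest p. Of the genes this rule picks, 2 are not reported here. GC content came from GENCODE transcripts and covered 94.3% of genes tested, and promoters came from RefSeq. Alternatives were other pseudocounts, filters, FPKM, scalings, no block, no trend, the highest record of a symbol, removal of the GC trend, and leaving out each library. Figures were drawn with matplotlib 3.10.9.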

Additional observations from a re-analysis of the deposited data

How the results depend on the processing

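Each of the 217 member results (31 members, 7 comparisons) was recomputed under 19 alternatives, except that SC5D and INSIG2 gave no values where the filter was a mean of 5 TPM. No called change turned its direction. In 68 of 4109 recomputed values a call was lost and in 21 one was gained, and 236 values that did not pass in either analysis changed sign. The share of all genes called also moved. In wild-type cells it was 4.68% in the main fit, 1.56% without a filter and 2.11% without the replicate block. In Smad3(RA/KP) cells it was 4.98% in the main fit, 1.32% without a filter, 2.05% without the block and 3.95% without limma's trend. Counts of members called moved as follows. In wild-type cells the 2 calls became 1 without a filter on low values and 1 without the replicate block, and ranged from 0 to 2 when 1 library was left out. In Smad3(RA/KP) cells the 4 calls became 0 without a filter, 0 without the replicate block and 1 without limma's trend, and ranged from 0 to 7, with 7 without replicate 1 of untreated Smad3(RA/KP) cells, 1 without its replicate 2 and 0 without any of the other 6 libraries. Averaged over both lines the 4 calls became 8 with FPKM (25.8%, against 14.2% of all genes) and ranged from 2 to 8, with 8 without replicate 1 of untreated Smad3(RA/KP) cells (against 22.2% of all genes) and 2 without any wild-type library or without replicate 2 of treated Smad3(RA/KP) cells. Without the replicate block 3 were called (9.68%, against 6.62% of all genes). The causes were not tested. The difference of responses and the comparisons of the lines gave 0 calls under every alternative. With n = 2 per group and no read counts, small changes were not detectable.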
